A study of Mus musculus with 12 samples.

Results

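The genes that time entry into the cell cycle downstream of growth signals were followed here in a β cell line: the D cyclins Ccnd1, Ccnd2 and Ccnd3, their kinase Cdk4, the kinase inhibitors Cdkn1b, Cdkn1c, Cdkn2a, Cdkn2c and Cdkn2d, and Men1. Members were all probes that the platform annotation names for 1 of these 10 genes, which gave 26 of 45281 probes, and 10 of the 19057 genes annotated on the arrays. After a filter on dim probes 19 of the 26 remained, and they cover 9 of the 10 genes. Ccnd1 did not pass the filter.

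RNA came from MIN6, a line grown from a mouse tumour of insulin-producing β cells. It was hybridised to 12 arrays of type Illumina MouseWG-6 v2, which fall into 6 groups of 2. Induced cells were transfected overnight with lipofectamine and a pair of plasmids, rtTA and tetO-184, and then given 1 µg/ml doxycycline for 16, 24, 48 or 72 hr, which turns on the microRNA miR-184. The transfected control had both plasmids and no doxycycline. In a comparison with it, an effect of miR-184 cannot be told apart from one of doxycycline. The untransfected control had lipofectamine and 1 µg/ml doxycycline but no plasmid, so that the controls differ from each other in both plasmids and doxycycline. When the controls were harvested is not in the labels, so that an effect of time in culture is not separated in comparisons with them. Transfection was transient, so that each value is a mean over transfected and untransfected cells of a well. The series text speaks of biological triplicates, and 2 arrays per group were analysed here. The 2 slides carried the groups at the same places, 1 array each, so that an effect of place cannot be told apart from one of group. The p-values measure only the spread between these arrays.

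D cyclins bind Cdk4 and Cdk6, and the complexes phosphorylate Rb, which releases E2F factors and lets a cell pass from G1 into S phase. The INK4 proteins (p16 of Cdkn2a, p18 of Cdkn2c and p19 of Cdkn2d) bind the kinase itself, while the Cip/Kip proteins (p27 of Cdkn1b and p57 of Cdkn1c) bind cyclin and kinase together and hold back cyclin E-Cdk2. In β cells Cdk4 and cyclin D2 are needed for postnatal growth of the mass, Cdkn1c is an imprinted gene read from the maternal allele, and menin, the product of Men1, works in a histone methyltransferase complex that keeps Cdkn1b and Cdkn2c expressed.

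The strand of miR-184 that the induction is meant to supply is shown because it defines the treatment. Its seed, bases 2 to 8, is in capitals. It was taken from RefSeq (GRCm38.p6, chr9:89802263-89802284, minus strand). The arrays hold no probe named for it, so that its level was not measured, and sites for it in these genes were not examined.
mmu-miR-184-3p: uGGACGGAgaacugauaagggu

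Promoter windows, from 250 bases before to 50 bases after a start of transcription, were available from RefSeq (GRCm38.p6) for 7 of the 10 genes, in 12 windows. Those of Cdk4 and Cdkn2d are shown because each gene passed a fit that allowed for the array slide late in the induction, in different comparisons. Cdk4 was higher at 72 hr than in the transfected control, and Cdkn2d was lower at 72 hr than at 16 hr. CACGTG, the E-box bound by Myc and related factors and its own reverse complement, is in capitals. The Cdk4 window (chr10:127063285-127063584, plus strand) holds it 4 times, with the first base 172, 118, 98 and 11 bases before the start.
Cdk4: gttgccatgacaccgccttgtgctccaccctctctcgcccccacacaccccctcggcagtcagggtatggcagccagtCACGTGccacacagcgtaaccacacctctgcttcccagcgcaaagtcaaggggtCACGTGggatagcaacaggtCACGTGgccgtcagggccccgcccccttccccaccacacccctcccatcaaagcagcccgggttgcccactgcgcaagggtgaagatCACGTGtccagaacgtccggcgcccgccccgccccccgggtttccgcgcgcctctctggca
The Cdkn2d window (chr9:21291160-21291459, minus strand) has no E-box and is therefore all in lower case.
Cdkn2d: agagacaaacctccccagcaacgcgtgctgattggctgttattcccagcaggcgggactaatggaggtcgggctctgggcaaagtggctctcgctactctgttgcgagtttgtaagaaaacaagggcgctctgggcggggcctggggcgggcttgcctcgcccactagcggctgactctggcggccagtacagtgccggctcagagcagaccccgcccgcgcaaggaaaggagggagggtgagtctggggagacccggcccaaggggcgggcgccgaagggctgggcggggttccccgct
Of all 32851 windows, 7.15% have at least 1 E-box and 0.0244% have at least 4. Among the 12 windows of these genes, 1 other, the second of Cdkn2c, has 1. The letters of E2F sites, TTTCGCGC, TTTGGCGC, TTTCCCGC and TTTGCCGC, were searched on both strands and occur in 1 of the 12 windows, the first of Cdkn2a, and in 2.26% of all windows. A match is a description of the letters and does not show a site in use.

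The cells expressed β-cell markers, and some markers of other islet cells as well. All 10 β-cell markers on the arrays, among them Ins2 and Pdx1, were detected (a detection p under 0.01) on all 12 arrays, while 0 of 5 fibroblast, 0 of 3 endothelial and 0 of 3 immune markers were detected on any. The α-cell markers Gcg, Irx2 and Ttr and the PP-cell hormone gene Ppy were also detected on all 12. Signals before normalization lay between 3509 and 25020 for Gcg, 15410 and 32530 for Ttr, and 217.9 and 435.1 for Irx2. For the β-cell genes Ins2 and Pdx1 they lay between 41910 and 53620 and between 2752 and 5433. Of the other islet and exocrine markers, the acinar gene Amy2a5 was detected on 2 arrays and Ghrl and Muc1 on 1 each, and 0 of 2 δ-cell markers on any. Arrays detected between 15243 and 16737 of the 45281 probes. After background correction and quantile normalization, levels are given as log2 signal, and 12001 features, each the brightest kept probe of a gene or a probe without a gene name, were tested with limma. A change was called at an adjusted p under 0.05 (Benjamini-Hochberg over all 12001 features). Because arrays that shared a slide tended to deviate in the same direction, a second fit treated the slide as a block, and its values are given where a call changes. In whole cultures, fewer cells of a type and less RNA per cell cannot be told apart.

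Among the D cyclins, Ccnd1 was not well above background. Its 3 probes were detected on 0 of the 12 arrays, with detection p-values between 0.0128 and 0.853, and its signals lay between 48.3 and 111.3, close to the array medians of 66.9 to 87.7. It was therefore not tested, and no fold is given for it.

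Ccnd2, the D cyclin with the best known role in β-cell growth, was detected on every array through 3 probes. The tested probe had log2 levels of 13.80 and 13.74 in the untransfected control, 13.54 and 13.68 in the transfected control, 13.66 and 13.65 at 16 hr, 13.78 and 13.65 at 24 hr, 13.48 and 13.29 at 48 hr and 13.57 and 13.30 at 72 hr. Both 48 hr arrays lay below all arrays of the controls and of 16 and 24 hr, while the 72 hr arrays overlapped the transfected control. The log2 fold change over the transfected control was −0.22 at 48 hr (SE 0.12, adjusted p = 0.544 in limma) and −0.18 at 72 hr (SE 0.12, adjusted p = 0.394), and neither passed.

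A second probe of Ccnd2 (ILMN_2700168) gave lower values at 72 hr without overlap. It had 12.55 on both 72 hr arrays, against 12.90 and 13.01 in the transfected control. When every kept probe was tested on its own, its log2 fold change was −0.40, which passed only with the slide as a block (adjusted p = 0.0201, or 0.0885 without it). In that fit 19% of all 17556 kept probes were called, and 4 of the 19 kept probes of these genes, which were this probe, a second probe of Cdkn1b and the tested probes of Cdk4 and Cdkn1c. The remaining detected probe (ILMN_1225932), annotated to a different transcript sequence, was dimmer. It had a change of 0.03 with an SE of 0.34 (−0.19 and 0.25 on the slides). Its sign is therefore not settled, and the 3 detected probes differed in size. Another probe of Ccnd2 (ILMN_1235724) was detected on 0 arrays.

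Ccnd3, the D cyclin best known from lymphoid cells, did not differ beyond its spread. At 72 hr its levels were 9.28 and 10.05, the lowest and the highest of all 12 arrays, against 9.76 and 9.97 in the transfected control. The log2 fold change was −0.20 (SE 0.22, adjusted p = 0.592), and it ran in opposite directions on the slides (−0.49 and 0.08). At 48 hr it was −0.33 (adjusted p = 0.607). A second probe for another transcript of Ccnd3 had a change of −0.18 at 72 hr, with the same split between the slides.

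**Figure D1:**
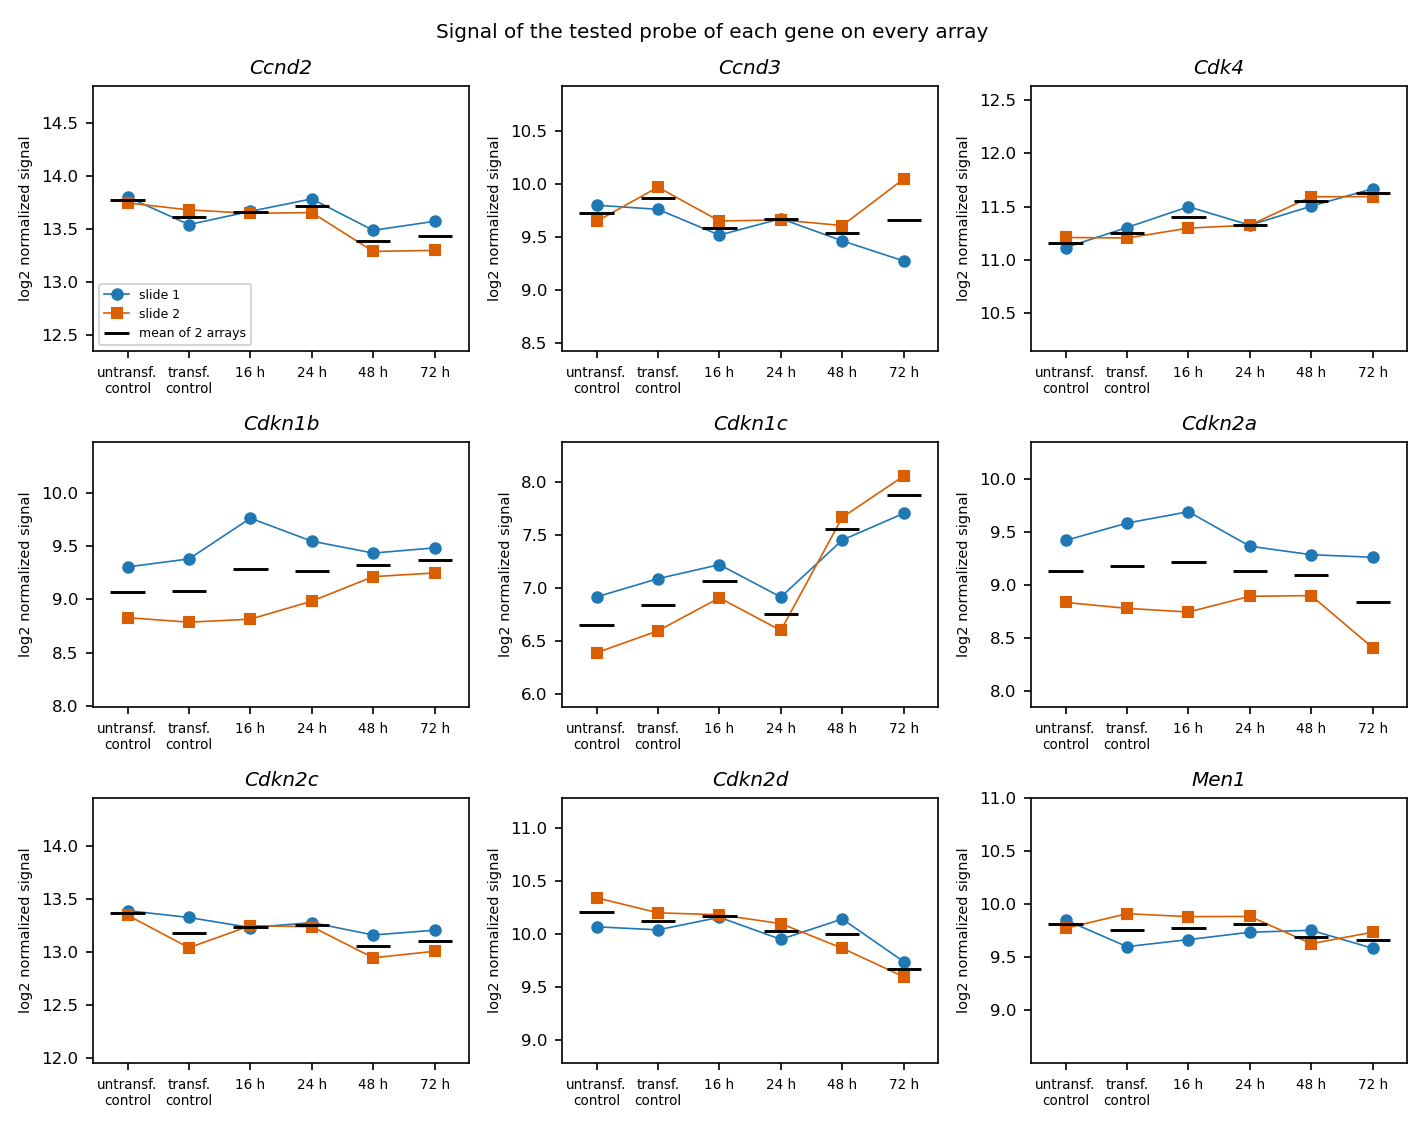
Log2 normalized signal (y axis, the same span in each panel) of the tested probe of 9 genes on every array, by group (x axis), with circles for slide 1, squares for slide 2 and black bars for the mean of 2 arrays. Cdkn1c reaches 7.70 and 8.05 at 72 hr, above every other array, and Cdkn1b and Cdkn2a lie higher on slide 1 in all 6 groups.

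Cdk4, the catalytic partner of the D cyclins, was slightly higher at 72 hr in the fit with the slide as a block. Its log2 levels were 11.11 and 11.21 in the untransfected control, 11.30 and 11.20 in the transfected control, 11.50 and 11.30 at 16 hr, 11.32 and 11.33 at 24 hr, 11.50 and 11.59 at 48 hr and 11.67 and 11.59 at 72 hr. The 48 and 72 hr arrays lay above all arrays of both controls and of 24 hr. Before normalization the mean signal of Cdk4 was 2580.8 at 48 hr and 3115.2 at 72 hr. It was 2621.3 in the transfected and 2775.8 in the untransfected control. The median signals of the arrays were also lower at 48 hr (66.9 and 67.2) than in the transfected control (72.6 and 82.4). At 72 hr the log2 fold change over the transfected control was 0.38 (SE 0.13, fold 1.30), with nearly the same value on each slide (0.37 and 0.39). It did not pass without the block (adjusted p = 0.0907) and passed with it (SE 0.12, adjusted p = 0.0469).

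That call was narrow. With the block and any 1 of the 4 arrays compared left out, the adjusted p lay between 0.109 and 0.276, and the fold change between 0.34 and 0.42. A dimmer probe of Cdk4 (ILMN_2646203) moved by 0.33 and did not pass (adjusted p = 0.441, or 0.299 with the block). At 48 hr the change was 0.29 (adjusted p = 0.434), and at 16 and 24 hr it was 0.14 and 0.07 (adjusted p = 1 each). Against the untransfected control at 72 hr it was 0.47 (adjusted p = 0.0474).

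Among the Cip/Kip inhibitors, Cdkn1c was the one gene of the 9 that was called at 72 hr without the block. Its log2 levels were 6.91 and 6.39 in the untransfected control, 7.09 and 6.60 in the transfected control, 7.22 and 6.91 at 16 hr, 6.91 and 6.60 at 24 hr, 7.45 and 7.66 at 48 hr and 7.70 and 8.05 at 72 hr. The 48 hr arrays lay above all 8 arrays of the controls and of 16 and 24 hr, and the 72 hr arrays lay above those. Before normalization the signals at 72 hr were 255.3 and 299.0, against 181.1 and 155.2 in the transfected control, and the probe was detected on all 12 arrays.

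Cdkn1c rose 2.05-fold at 72 hr over the transfected control, a log2 fold change of 1.04 with a 95% confidence interval of 0.47 to 1.60 (SE 0.26, adjusted p = 0.0451 in limma). With the block the SE was 0.23 and the adjusted p was 0.00935. It was higher on both slides, by 0.62 on slide 1 and 1.46 on slide 2. At 48 hr it was 0.72 (0.36 and 1.07 on the slides), which did not pass (adjusted p = 0.384, or 0.129 with the block). At 16 hr it was 0.22 and at 24 hr −0.08 (adjusted p = 1 each).

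The call of Cdkn1c at 72 hr rested on few arrays. Without the block it was lost when the 72 hr array of slide 2 (adjusted p = 0.28), the transfected control of slide 1 (0.101) or that of slide 2 (0.225) was left out, and it was kept without the 72 hr array of slide 1 (0.0343). With the block it was lost without the 72 hr array of slide 2 (0.0977) or the transfected control of slide 2 (0.132). The fold change stayed between 0.72 and 1.36 in these fits. Against the untransfected control it was 1.23 (adjusted p = 0.0253). This is the only probe of Cdkn1c on the array, so that no second probe bears on it.

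**Figure D2:**
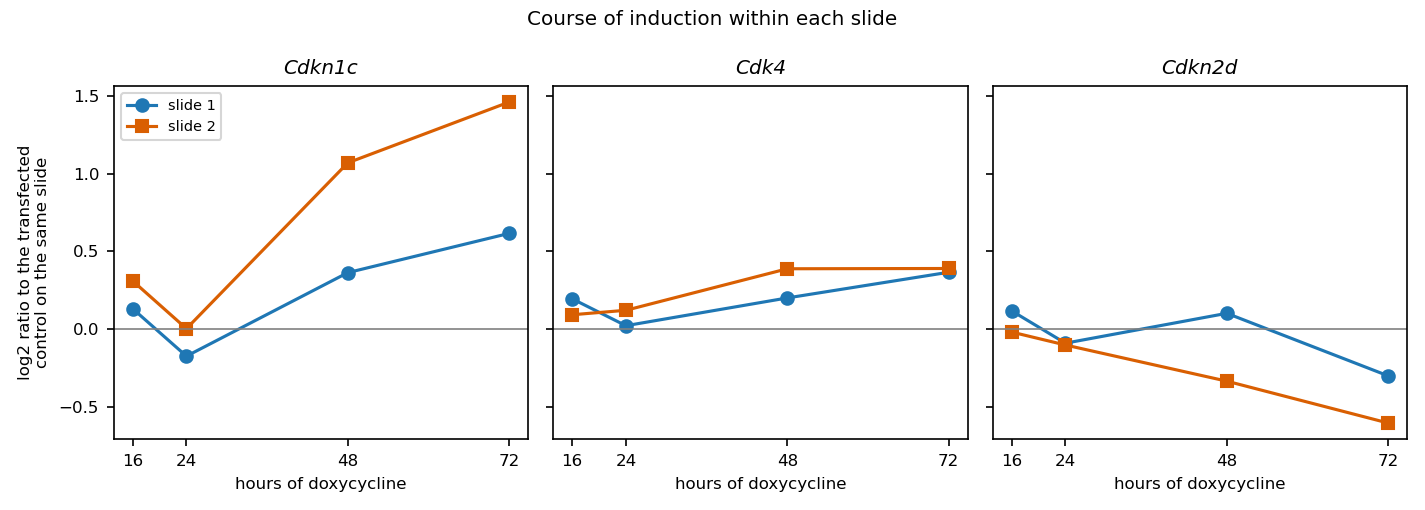
Log2 ratio of each induced array to the transfected control on the same slide (y axis) by hours of doxycycline (x axis), for Cdkn1c, Cdk4 and Cdkn2d, with circles for slide 1 and squares for slide 2. At 72 hr Cdkn1c is at 0.62 and 1.46, Cdk4 at 0.37 and 0.39 and Cdkn2d at −0.30 and −0.60, while at 24 hr all 6 points lie between −0.17 and 0.12.

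Cdkn1b, which encodes p27, followed the slides more than the groups. The tested probe was higher on slide 1 in 6 of 6 groups, by 0.51 on average. At 72 hr it had 9.49 and 9.25, against 9.38 and 8.79 in the transfected control, a log2 fold change of 0.28 (SE 0.32, adjusted p = 0.611). With the block the SE was 0.18 and it still did not pass (adjusted p = 0.27). At 48 hr it was 0.24 (adjusted p = 0.822).

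A second, dim probe of Cdkn1b (ILMN_2923960) was detected on 7 of 12 arrays, including both arrays at 48 and 72 hr and neither of the transfected control. It had 6.40 and 6.15 at 72 hr, against 5.62 and 5.64 in the transfected control. The difference passed with the block when each probe was tested on its own (adjusted p = 0.0355, or 0.101 without it). Since neither transfected control array detected it, the fold is a bound, and the probe was at least 1.27-fold higher at 72 hr than the lowest signal detected on the control arrays. Before normalization the mean signal of this probe was 103.2 at 48 hr and 123.1 at 72 hr. It was 99.9 in the transfected and 108.2 in the untransfected control. The remaining probe of Cdkn1b was detected on 0 arrays.

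Cdkn2d, which encodes the INK4 protein p19, had lower levels at 72 hr than in any other group. Its log2 levels were 10.07 and 10.34 in the untransfected control, 10.04 and 10.20 in the transfected control, 10.16 and 10.18 at 16 hr, 9.95 and 10.10 at 24 hr, 10.14 and 9.86 at 48 hr and 9.74 and 9.59 at 72 hr. Both 72 hr arrays were below the other 10 arrays, and the earlier groups overlapped. The log2 fold change at 72 hr was −0.45 over the transfected control (SE 0.16, −0.30 and −0.60 on the slides). It did not pass (adjusted p = 0.107, or 0.0561 with the block).

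Set against the 16 hr arrays, Cdkn2d fell by 0.50 on the log2 scale at 72 hr, with −0.42 and −0.58 on the slides. This passed with the block (SE 0.15, adjusted p = 0.0394) and not without it (SE 0.16, adjusted p = 0.0882). With the block, leaving out an array other than the 72 hr array of slide 1 ended that call (adjusted p between 0.143 and 0.218). At 16, 24 and 48 hr the change over the transfected control was 0.05, −0.10 and −0.12 (adjusted p = 1, 1 and 0.834). Only 1 probe of the array is annotated to Cdkn2d.

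Cdkn2c, which encodes p18, gave a different answer from each of its 3 probes. The tested probe was level, with 13.21 and 13.01 at 72 hr, against 13.33 and 13.04 in the transfected control (log2 fold change −0.08, SE 0.13, adjusted p = 0.745). The second (ILMN_2420939) had 12.03 and 11.21, against 12.21 and 11.75, a change of −0.36 (adjusted p = 0.446, or 0.101 with the block). The probe ILMN_1215651 had 10.51 and 9.91, against 10.09 and 9.63, a change of 0.35 (adjusted p = 0.397, or 0.108 with the block).

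In the comparison of 72 hr with 16 hr, the second probe of Cdkn2c fell by 0.60 and passed with the block (adjusted p = 0.0142, or 0.201 without it), where 18.5% of all kept probes were called. In that fit the second probe of Ccnd2 also passed (−0.35, adjusted p = 0.0378), beside the tested probes of Cdkn1c and Cdkn2d. The tested probe and ILMN_1215651 are annotated to the same RefSeq transcript and ILMN_2420939 to a cDNA clone. At 48 hr the tested probe of Cdkn2c was at −0.13 (adjusted p = 0.751). No direction is therefore given for this gene.

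Cdkn2a, the locus of both p16 and Arf and a known brake on replication of older β cells, also split by slide. The tested probe was higher on slide 1 in 6 of 6 groups, by 0.67 on average. It had 9.26 and 8.41 at 72 hr, against 9.58 and 8.78 in the transfected control. Each 72 hr array was thus lower than the control on its own slide (−0.32 and −0.37), while the groups overlapped. The log2 fold change was −0.35 with an SE of 0.39 without the block and 0.16 with it, and it did not pass in either fit (adjusted p = 0.607 and 0.153). At 48 hr it was −0.09 (adjusted p = 0.96).

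Another probe of the same Cdkn2a transcript had a change of −0.35 at 72 hr (adjusted p = 0.548, or 0.131 with the block), and a probe annotated to the other RefSeq transcript of the locus had 0.03. The files do not say which of p16 and Arf each transcript encodes.

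Men1 did not pass in any comparison. At 72 hr it had 9.59 and 9.74, against 9.60 and 9.91 in the transfected control, a log2 fold change of −0.09 (SE 0.16, 95% confidence interval −0.45 to 0.26, adjusted p = 0.748). At 48 hr it was −0.06 (adjusted p = 0.929). A second probe was at −0.23 at 72 hr (adjusted p = 0.434).

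**Figure D3:**
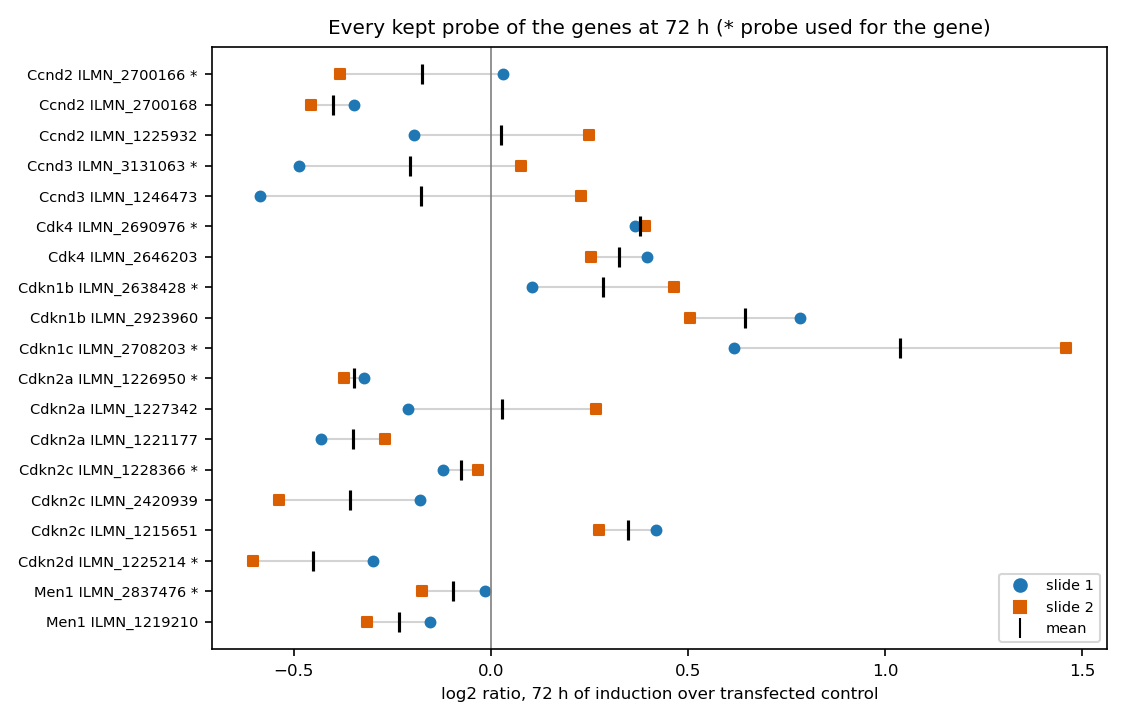
Log2 ratio at 72 hr over the transfected control (x axis) for all 19 kept probes of the 9 genes (y axis), with circles for slide 1, squares for slide 2, black ticks for their mean and asterisks at the probes used for the genes. The 3 probes of Cdkn2c have means of −0.08, −0.36 and 0.35, while both probes of Cdk4 lie above 0 on each slide.

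Counted over the 9 tested genes, 1 was called higher at 72 hr (Cdkn1c) and 0 lower, where 5.48% of all features were called, 2.73% higher and 2.75% lower. With the block 2 were higher (Cdkn1c and Cdk4) and 0 lower, where 19.2% of all features were called, 10.4% higher and 8.76% lower. Read against these shares, counts of 1 and 2 of 9 are no result about the set. The median of the 9 log2 fold changes was −0.09, beside 0.00 over all features, and 3 of the 9 were above 0.

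**Figure D4:**
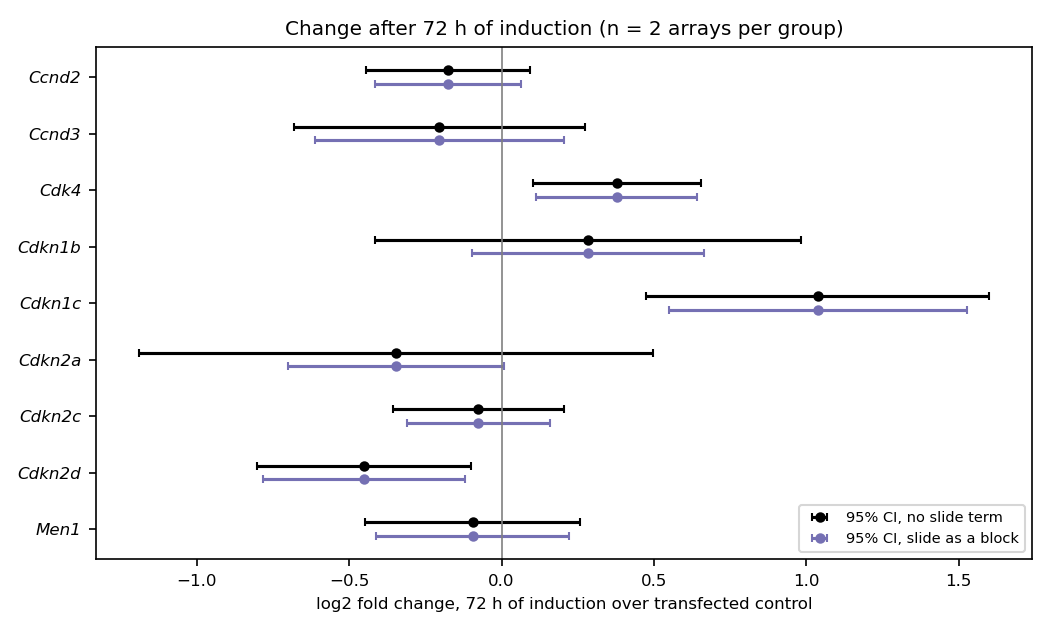
Log2 fold change at 72 hr over the transfected control (x axis) of the 9 tested genes (y axis), with 95% confidence intervals of limma without a slide term (black) and with the slide as a block (violet), n = 2 arrays per group. The intervals of Cdkn1c (0.47 to 1.60 without the block), Cdk4 and Cdkn2d leave out 0 before adjustment for 12001 features, and those of the other 6 genes hold it.

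From 16 to 72 hr, 0 of the 9 were called without the block, where 3.07% of all features were called, 1.62% higher and 1.44% lower. With the block Cdkn1c was called higher (0.82, SE 0.23, adjusted p = 0.0264, or 0.0842 without the block) and Cdkn2d lower, where 18.6% of all features were called, 9.99% higher and 8.65% lower. The call of Cdkn1c there was also lost when an array other than the 72 hr array of slide 1 was left out (adjusted p between 0.0846 and 0.247). The others ran from −0.38 for Cdkn2a (SE 0.39) to 0.23 for Cdk4 (SE 0.13), with Ccnd2 at −0.22, Cdkn2c at −0.13, Men1 at −0.11, and Ccnd3 and Cdkn1b at 0.08 each, and none of these passed. This comparison shares the 72 hr arrays with the one above and is not separate evidence.

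Earlier in the induction none of the 9 genes was called, with or without the block. At 48 hr 0% of all features were called without the block and 0.95% with it. At 16 hr the shares were 0% and 0.00833%, and at 24 hr 0% and 0.0167%. Without adjustment, 2 of the 9 had a p under 0.05 at 48 hr, and 0 did at 16 or 24 hr. Over all features, 1296 passed this unadjusted threshold at 48 hr, 101 at 16 hr and 138 at 24 hr. Between the transfected and the untransfected control none of the 9 was called, where 0% of features were called without the block and 0.00833% with it, and 109 had an unadjusted p under 0.05. In that comparison of the transfected with the untransfected control, Cdkn1c was at 0.19, Cdk4 at 0.09 and Cdkn2d at −0.09.

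Against the untransfected control in place of the transfected one, 2 of the 9 genes were called higher at 72 hr, Cdkn1c and Cdk4, where 7.11% of all features were called. With the block 4 were called, where 20.4% of all features were, these 2 higher and Cdkn2d (−0.54, adjusted p = 0.0277) and Ccnd2 (−0.34, adjusted p = 0.0477) lower. Without the block Cdkn2d and Ccnd2 had adjusted p-values of 0.0632 and 0.108.

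Across the 12 arrays, after the slide means were taken off, Cdkn1c ran with Cdk4 (Pearson r = 0.87) and against Ccnd2 (−0.91) and Cdkn2d (−0.84). The named genes with the most similar pattern to Cdkn1c were Mob1a (0.98), Rbm38 (0.97) and Zbtb21 (0.97). For Cdk4 they were Gabarapl1 (0.98), Atg101 (0.97) and Dusp28 (0.97), and for Cdkn2d Cenpm (0.98), Fkbp1b (0.96) and Ppp1r35 (0.96). These are descriptions over arrays that share the groups, the slides and the normalization, and the genes were picked as the highest of 9493.

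Genes around this node were taken from 9 lists. At 72 hr 2 of their 91 tested genes were called higher without the block and 0 lower, and with the block 15 were higher and 6 lower. The shares over all features were 2.73% higher and 2.75% lower without the block and 10.4% higher and 8.76% lower with it, and the counts of each list at 72 hr are to be read against them. Fbxo31, whose protein directs the degradation of cyclin D1, had a log2 fold change of 0.77 (1.00 and 0.54 on the slides, adjusted p = 0.0489). Kmt2a, the methyltransferase that binds menin, had 0.91 (0.40 and 1.42 on the slides, adjusted p = 0.0458). Each was the only one of its list, with 13 tested genes of D cyclin and p27 turnover and 12 of the menin complex, whose list medians were both 0.15. With the block Bcl6, a repressor, (1.20, adjusted p = 0.0133) and Psip1, which tethers menin to chromatin, (0.41, adjusted p = 0.0324) were also higher in the menin list. From 16 to 72 hr 4 of the 91 were higher and 1 lower without the block, where 1.62% and 1.44% of all features were, among them Kmt2a (1.01, adjusted p = 0.0447) and Bcl6 (1.51, adjusted p = 0.0409).

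The other CDK inhibitors moved both ways. Cdkn1a, which encodes p21, was higher with the block (0.74, adjusted p = 0.0133, or 0.108 without it), and Cdkn3, a phosphatase of CDKs that is high in dividing cells, was lower (−0.87, adjusted p = 0.0142, or 0.0772 without it). Cdkn2b, the neighbour of Cdkn2a that encodes p15, was at 0.13 (adjusted p = 0.715). Of 8 other G1 and S phase cyclins and kinases, 1 passed with the block, Mnat1 of the CDK-activating kinase (0.59, adjusted p = 0.0391). Cdk2, the partner of cyclin E, was at 0.45 (adjusted p = 0.134, or 0.0657 with the block) and passed with the block from 16 to 72 hr (0.55, adjusted p = 0.0307).

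Among 12 pocket proteins and E2F factors, 0 passed at 72 hr without the block and 2 with it, both higher. They were Tfdp2, a partner of E2F (0.72, adjusted p = 0.0126), and Lin54, the DNA-binding subunit of the DREAM complex (0.68, adjusted p = 0.0127). From 16 to 72 hr both passed without the block, Tfdp2 at 0.98 and Lin54 at 0.89 (adjusted p = 0.0393 each). Rb1, the target of Cdk4, was at 0.44 at 72 hr (adjusted p = 0.133, or 0.0772 with the block). From 16 to 72 hr Rb1 (0.52, adjusted p = 0.0431) and its relative Rbl1 (0.61, adjusted p = 0.0229) passed with the block and not without it. The list median at 72 hr was 0.31.

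Of 13 polycomb and other regulators of Cdkn2a, 0 passed at 72 hr without the block, and with it 3 were higher and 1 lower. Cbx7, a polycomb subunit known to hold Cdkn2a silent, was at 1.18 (adjusted p = 0.00238, or 0.0575 without the block). Bmi1, with the same role, was at 0.67 (adjusted p = 0.0252) and Suz12 at 0.37 (adjusted p = 0.0417), both with the block. Id1, an inhibitor of bHLH factors, was lower (−1.44, adjusted p = 0.025 with the block), mostly on slide 2 (−2.54, against −0.35 on slide 1). From 16 to 72 hr Id1 was lower without the block as well (−2.05, adjusted p = 0.0428). Of 4 genes of the p53 arm of Arf, 1 passed at 72 hr with the block, Ubtf, a factor of ribosomal RNA transcription (0.84, adjusted p = 0.00941).

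Of 11 genes that carry growth signals to D cyclins and p27, 2 were higher and 1 lower at 72 hr with the block, and 0 passed without it. Stat5a, the mediator of prolactin signals, was at 0.90 (adjusted p = 0.0109), Insr, the insulin receptor, at 0.95 (adjusted p = 0.00194) and Crem, a CREB family factor, at −0.94 (adjusted p = 0.00654). The list median was 0.33.

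Proliferation markers had a median of 0.01 over 15 genes. With the block the mitotic genes Plk1 (−0.59, adjusted p = 0.00834), Cdk1 (−0.55, adjusted p = 0.0118) and Cdc20 (−0.50, adjusted p = 0.017) were lower, and Mcm7, of the replicative helicase, was higher (0.58, adjusted p = 0.024). None of the 15 passed without the block. All 4 had the same sign on both slides. At 16, 24 and 48 hr and by transfection, 0 genes of the 9 lists passed with or without the block. These lists were chosen with earlier results of these data known, and their counts describe the lists only.

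**Figure D5:**
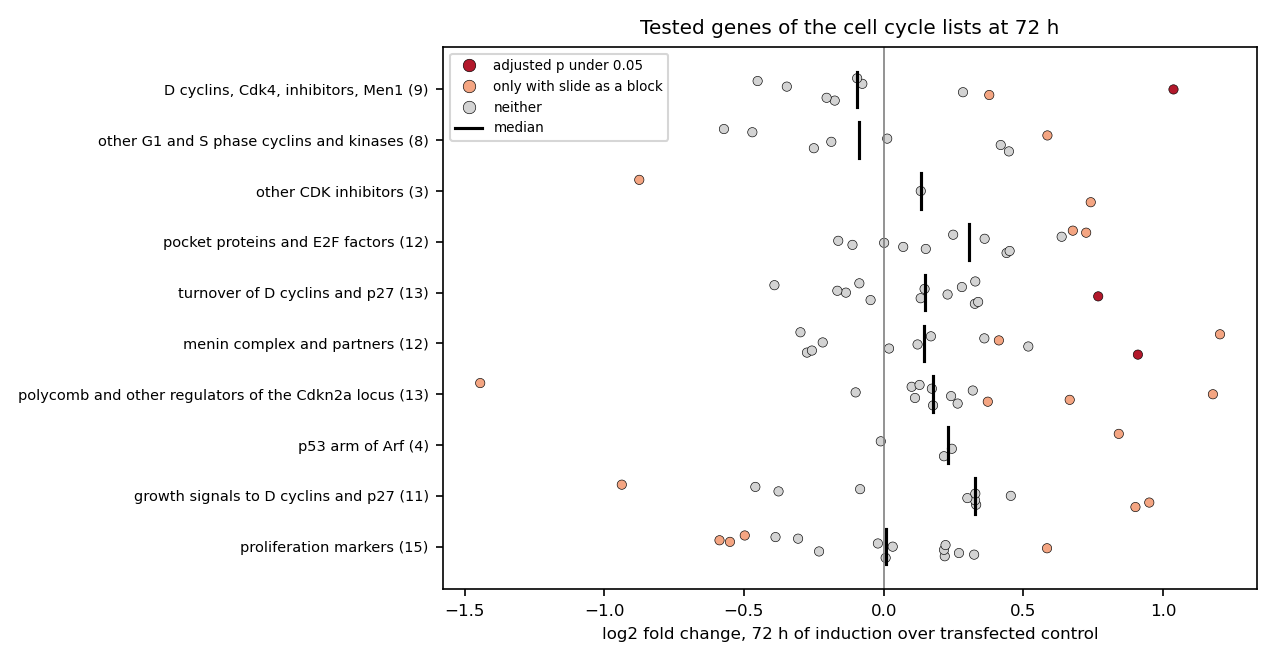
Log2 fold change at 72 hr over the transfected control (x axis) of each tested gene, by list (y axis, number of tested genes in brackets), with medians as black bars. Red points passed an adjusted p of 0.05 in limma (Cdkn1c, Fbxo31 and Kmt2a), orange points passed only with the slide as a block, and grey points passed in neither fit.

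Endocrine markers moved at the same time as these genes. At 72 hr Gcg was lower (−1.93, adjusted p = 0.0134) and Irx2 higher (1.09, adjusted p = 0.0151), Ttr was lower with the block (−0.46, adjusted p = 0.0284), and Mafa, a factor of mature β cells, was lower with the block (−1.27, adjusted p = 0.0122). Of the other 9 β-cell markers, 8 did not pass in either fit. Ins2 was the brightest probe on 11 of the 12 arrays, where quantile normalization gives it the same value of 15.53, so that its change could not be measured. The part of these markers in the changes of Cdkn1c, Cdk4 and Cdkn2d was not tested. The spread between replicate arrays was also larger at 48 and 72 hr (a root mean square SD of 0.34 and 0.31) than in the transfected control (0.27) and at 16 and 24 hr (0.23 and 0.22).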

How the data were processed

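Signal intensities (bead means per probe, before normalization between arrays) and detection p-values were deposited by the authors for all 12 arrays. The authors also deposited quantile-normalized intensities, made with lumi per the labels, which served here only as an alternative. Replicate numbers follow the slides named in the labels.

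The neqc function of limma 3.58.1 (R 4.3.3) used the detection p-values for background correction, followed by quantile normalization and log2 with an offset of 16. A probe was kept if its detection p was under 0.01 on 2 or more arrays (17556 probes), and the brightest kept probe stood for a gene, giving 12001 features with 9493 named genes. The platform annotation gives 1 symbol for 34885 probes and several for 18. It leaves 10378 unnamed here. Entrez IDs matched 34807 probes and changed 0 symbols. Limma was fitted to 6 group means (variance trend, 6 residual degrees of freedom), with Benjamini-Hochberg adjustment. Residuals of same-slide arrays correlated for each of the 15 group pairs, between 0.207 and 0.628 (median 0.434). The slide was therefore taken to pair arrays, and a second fit had it as a block (5 residual degrees of freedom). Every kept probe was also tested by itself.

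The members and lists were chosen with earlier results of these data known. The rule named all members with every probe, up to 4 genes of each list by the smallest p at 72 hr, list genes that passed in another comparison, and the 3 genes most correlated with each member, not all of which are printed. The fits were tested on simulated data before use. Alternatives were the block, signals without background correction or with an offset of 50, scaling by medians, the normalized values of the authors, a filter on 6 arrays or none, every probe, only the groups compared, the methods' t-test, omission of each array and the other control. The block combined with the untransfected control was added after the data were seen. Motifs were searched with Python 3.11.15, and figures were drawn with matplotlib 3.10.9. The number of arrays limits the precision.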

Additional observations from a re-analysis of the deposited data

Results flagged for a closer look

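Levels differed between the 72 hr and the 16 hr arrays for 2 of the genes, in the fit with the slide as a block. The transfected control has no part in this comparison. Time since transfection rises with the hours of doxycycline in these groups, so that their effects cannot be told apart. For Cdkn1c the difference was 0.82 on the log2 scale (0.48 and 1.15 on the slides), with an adjusted p of 0.0264 in limma with the block and 0.0842 without it. For Cdkn2d it was −0.50 (−0.42 and −0.58 on the slides), with an adjusted p of 0.0394 with the block and 0.0882 without it. Groups of 2 arrays are too small for a check of single arrays that stand apart.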

How the results depend on the processing

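With the slide as a block (the pairing of arrays), 1, 2, 114 and 2305 features were called at 16, 24, 48 and 72 hr, 2237 from 16 to 72 hr and 1 by transfection, against 0, 0, 0, 658, 368 and 0 without it, and 2 genes of the cell cycle set at 72 hr and 2 from 16 to 72 hr, against 1 and 0. By the methods' t-test at their unadjusted threshold, 389, 446, 604 and 1331 features passed at 16, 24, 48 and 72 hr, 1362 from 16 to 72 hr and 338 by transfection, and 1 gene of the set at 48 hr and 1 from 16 to 72 hr. At 72 hr Cdk4 passed this unadjusted t-test, while Cdkn1c and Cdkn2d did not. After Benjamini-Hochberg adjustment 0 features and 0 genes of the set passed at 72 hr, and 0 features from 16 to 72 hr. At 72 hr, 0 genes of the set passed with median scaling (Cdkn1c adjusted p = 0.0559), with no filter (0.0674) or with only the groups compared (0.0788), where 387 features passed. Testing every kept probe gave 559 calls from 16 to 72 hr, and the authors' normalized values gave 1 by transfection. Against the untransfected control 2 genes of the set passed at 72 hr, and with the block as well 4 passed, beside 3, 3, 196 and 2449 features at 16, 24, 48 and 72 hr. Against that control Cdkn2d at 16 hr was −0.035 and Cdkn1c at 24 hr 0.10, the reverse of their signs against the transfected control.

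Leaving out each array in turn, with or without the block, gave 0 to 1 features at 16 hr, 0 to 1 at 24 hr, 0 to 975 at 48 hr, 0 to 2875 at 72 hr and 0 to 2834 from 16 to 72 hr, and 0 to 1 genes of the set at 48 hr, 0 to 2 at 72 hr and 0 to 2 from 16 to 72 hr. The 1 call at 48 hr was Cdkn1c (0.95, adjusted p = 0.0498), with the block and without the 48 hr array of slide 1. Signs turned in these fits for several genes, each in comparisons where that gene passed in none of them. Cdkn1c ranged from −0.024 to 0.47 at 16 hr, from −0.33 to 0.16 at 24 hr and from −0.074 to 0.45 by transfection, and Cdkn2d from −0.030 to 0.13 at 16 hr, from −0.30 to 0.068 at 48 hr and from −0.23 to 0.060 by transfection. At 48 hr Cdkn1b ranged from −0.056 to 0.54, Cdkn2a from −0.49 to 0.31, Cdkn2c from −0.27 to 0.013 and Men1 from −0.22 to 0.091. At 72 hr Ccnd3 ranged from −0.59 to 0.18, Cdkn1b from −0.014 to 0.58, Cdkn2a from −0.77 to 0.08, Cdkn2c from −0.22 to 0.066 and Men1 from −0.25 to 0.060. From 16 to 72 hr Ccnd3 ranged from −0.31 to 0.46, Cdkn1b from −0.40 to 0.55 and Cdkn2a from −0.86 to 0.090. Where a group was left with 1 array, that array was assumed to vary like the other groups. At 72 hr Cdkn1c, Cdk4, Cdkn2d and Ccnd2 kept their sign in each alternative. The cause of the lost calls was not tested. With 2 arrays per group, small changes could not be resolved. Signals of Ccnd1 and of the dim probe of Cdkn1b did not reach detection on either transfected control array.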
